A study of Mus musculus with 148 samples.

Results

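Ccl2, Ccl7, Ccl8 and Ccl12 are the monocyte chemoattractant chemokines of the mouse, and they were followed here as 4 of the 52634 gene rows of the plate count files. They were chosen by name, as the listed monocyte-attracting chemokines, and all 4 had counts. Single cells were sorted into 384-well plates from lungs and primary tumors of female C57/b6 PA-GFP mice (which carry a photoactivatable green fluorescent protein), which all groups shared. EO771-tdTomato cells are a mouse mammary carcinoma line with a red reporter. Except in the control mice of the Normal group, they were injected in Matrigel into the inguinal mammary gland at 8 weeks of age. The tumor was resected 3 weeks later, and lung metastases were followed weekly by CT. Cells were sorted as CD31- CD45+ or, on most photoactivated plates, as CD31- GFP+ with no CD45 gate, so the share of non-immune cells could differ by plate, which was not measured. Transcripts were counted as unique molecular identifiers (UMIs), and 24020 of 56832 wells carried a cell-type label from the authors, who discarded cells under 500 UMIs.

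The 27 mice gave 63 samples, each the cells of 1 mouse in 1 tissue status, in 8 groups. Metastatic lung tissue (MET) was sampled in 13 mice, the photoactivated MET Core in 13, the MET Invasive margin in 7 and Distal normal tissue of metastasis-bearing lungs in 14. Lungs labelled Normal came from 3 mice, which the paper describes as controls that bore no tumor. Pre-MET lungs came from 3 tumor-bearing mice before resection, Primary tumors from 4 mice including those 3, and Relapse-free lungs from 6 mice without metastases. A sample held 57 to 2017 labelled cells and 48306 to 2957637 UMIs. The median UMIs per cell ran from 629 to 3490 over samples, and the 4 Primary samples, at 1961 to 3490, were the deepest group. The replicate was the mouse, and levels are CPM (counts scaled to a library of 1000000 UMIs) of the cells of 1 label in 1 sample added together, given where at least 10 cells entered, which left 519 sums over 29 labels. The margin plates of mice 31, 32, 33 and 36 carried a region label of MET and those of mouse 17 a target label of NON-MET, so the tissue status was used as labelled. Plates reused the same 384 cell barcodes, and no combination of sequencing batch and plate barcode stood on more than 1 plate.

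C-C chemokines are small secreted proteins that draw leukocytes along a gradient through G protein-coupled receptors. Ccl2, Ccl7 and Ccl12 attract Ccr2-bearing monocytes out of bone marrow and blood into inflamed tissue, Ccl7 also acts through Ccr1 and Ccr3, and mouse Ccl8 is best known as a ligand of Ccr8. In tumors, Ccl2 is known for recruiting the monocytes that become tumor macrophages, and the genes are induced by NF-kB and interferon signals.

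The genes lie side by side on chromosome 11 (GRCm38, the build mm10 of the files), all on the plus strand and with 3 exons each. Ccl2 (ENSMUSG00000035385.5) spans chr11:82035571-82037453, Ccl7 (ENSMUSG00000035373.2) chr11:82045712-82047525, Ccl12 (ENSMUSG00000035352.3) chr11:82101845-82103400 and Ccl8 (ENSMUSG00000009185.2) chr11:82115185-82116799. The eotaxin gene Ccl11 lies between Ccl7 and Ccl12, and the span from Ccl2 to Ccl8 is 81.2 kb. Because paralogs can share reads, their transcripts were compared. The stretch of 54 coding bases around the adjacent cysteines that define the C-C family is shown, with the codons of the cysteine pair in capitals. It crosses the junction of exons 1 and 2 and comes from the GENCODE transcripts.
Ccl2: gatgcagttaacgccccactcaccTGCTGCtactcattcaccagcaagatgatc
Ccl7: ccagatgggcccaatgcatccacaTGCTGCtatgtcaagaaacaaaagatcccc
Ccl8: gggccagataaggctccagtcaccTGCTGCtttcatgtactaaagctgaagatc
Ccl12: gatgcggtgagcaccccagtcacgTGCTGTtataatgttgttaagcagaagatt
Of these 54 bases, Ccl8 and Ccl12 shared 35, Ccl2 and Ccl12 33, Ccl2 and Ccl8 32, and Ccl7 shared only 20 to 23 with the others. Over the whole coding sequence, Ccl7, Ccl8 and Ccl12 were 63.5% to 65.4% identical to each other, and Ccl2 was 47.6% to 48.8% identical to them. The longest run shared by any pair was 23 bases in the whole transcript (Ccl2 and Ccl7). In the last 200 bases, which a 3' library reads, it was 8 to 13 bases. Reads that mapped to several places were discarded by the authors, and how many members' reads this removed was not tested.

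The 250 bases before the start of Ccl8 (chr11:82114935-82115184) and Ccl12 (chr11:82101595-82101844) are shown because these neighbours, 65.4% identical in coding sequence, had their highest means in different labels. These were Mac Cd81 for Ccl8 and Mac Isg20 for Ccl12, although Mac Cd81 held the largest share of the UMIs of both (91.9% and 45.2%). They come from RefSeq (GRCm38.p6), whose promoter table matched 2 of the 4 members. Capitals mark TATAAA, the TATA box letters.
Ccl8: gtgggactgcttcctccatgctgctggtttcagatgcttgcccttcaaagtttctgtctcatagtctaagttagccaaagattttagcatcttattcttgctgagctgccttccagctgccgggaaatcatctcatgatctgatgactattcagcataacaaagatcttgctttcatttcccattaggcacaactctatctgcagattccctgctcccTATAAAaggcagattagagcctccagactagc
Ccl12: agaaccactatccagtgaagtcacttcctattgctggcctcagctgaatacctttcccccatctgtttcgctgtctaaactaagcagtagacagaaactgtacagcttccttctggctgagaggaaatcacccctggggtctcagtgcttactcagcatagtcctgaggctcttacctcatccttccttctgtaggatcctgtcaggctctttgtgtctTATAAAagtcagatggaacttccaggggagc
TATAAA stood on the plus strand close to the start in both promoters, and 12.4% of the 32851 promoters in the table held it. Searched on both strands, TGANTCA (AP-1, in 6.75% of promoters), TTCNNNGAA (STAT, 7.02%), GAAANNGAAA (interferon response, 2.98%) and the NF-kB motif (7.25%) had no match in these windows.

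The annotated cells held 11058 UMIs of Ccl2 in 1463 cells, 10809 of Ccl7 in 970 cells, 7617 of Ccl8 in 205 cells and 5871 of Ccl12 in 577 cells. The members were thus abundant in total and present in few cells. In totals, Ccl2 ranked at 652 and Ccl12 at 1399 of all rows. Macrophages and the monocyte label Mon Thbs1 carried most of these counts. The levels by label are a description, since the authors drew the labels from the same counts, and no label was tested against another. All Mac Isg20 sums came from MET and the MET Core, and Mac Cd81 sums also from Primary, so label and tissue are mixed in this order.

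Ccl2 was highest in Mac Isg20, at 3668 ± 2306 CPM (SD, n = 15 sums), with a lowest sum of 749, a median of 2957 and a highest of 9318. Among macrophage and monocyte labels, Mon Thbs1 followed at 1029 ± 832 CPM (n = 25, from 0 to 2957), Mac Gpnmb at 675 ± 599 (n = 14) and Mac Cd81 at 531 ± 586 (n = 9). The Tumor label, with 2 sums, held 916. Mon Fn1, the most common monocyte label of distal lung, held 182 ± 356 CPM (n = 54, median 81.3). Mac Isg20 thus exceeded Mon Thbs1 by 3.57-fold in the mean, but the sums of all neighbouring labels in this order overlapped.

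Ccl7 was also highest in macrophages. Mac Isg20 held 4582 ± 4147 CPM (n = 15, lowest 597, median 2674, highest 14192), Mac Gpnmb 721 ± 631 (n = 14) and Mac Cd81 701 ± 689 (n = 9). Mon Thbs1 held 246 ± 256 CPM (n = 25, median 161), less than its Ccl2.

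Ccl12 was also highest in Mac Isg20, at 1953 ± 2259 CPM (n = 15, lowest 204, median 1043, highest 8223), followed by Mac Cd81 at 917 ± 834 (n = 9). It separated from Ccl2 and Ccl7 in Mac Gpnmb, which held 52.0 ± 94.8 CPM (n = 14). Mon Thbs1 held 268 ± 388 CPM (n = 25).

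Ccl8 followed another order. Its highest label was Mac Cd81, at 1466 ± 2267 CPM (n = 9, lowest 0, median 145, highest 5750.5), whereas Mac Isg20 held 64.2 ± 144 (n = 15, median 0) and Mac Gpnmb 23.2 ± 38.3 (n = 14). The spread within Mac Cd81 exceeded its mean, since the high sums came from Primary tumors and the sums from metastases were at 0 to 145 CPM. Mac Cd9, a median of 92.6% of macrophages in Normal and 82.8% in Relapse-free lungs, was near 0 for all members.

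**Figure D1:**
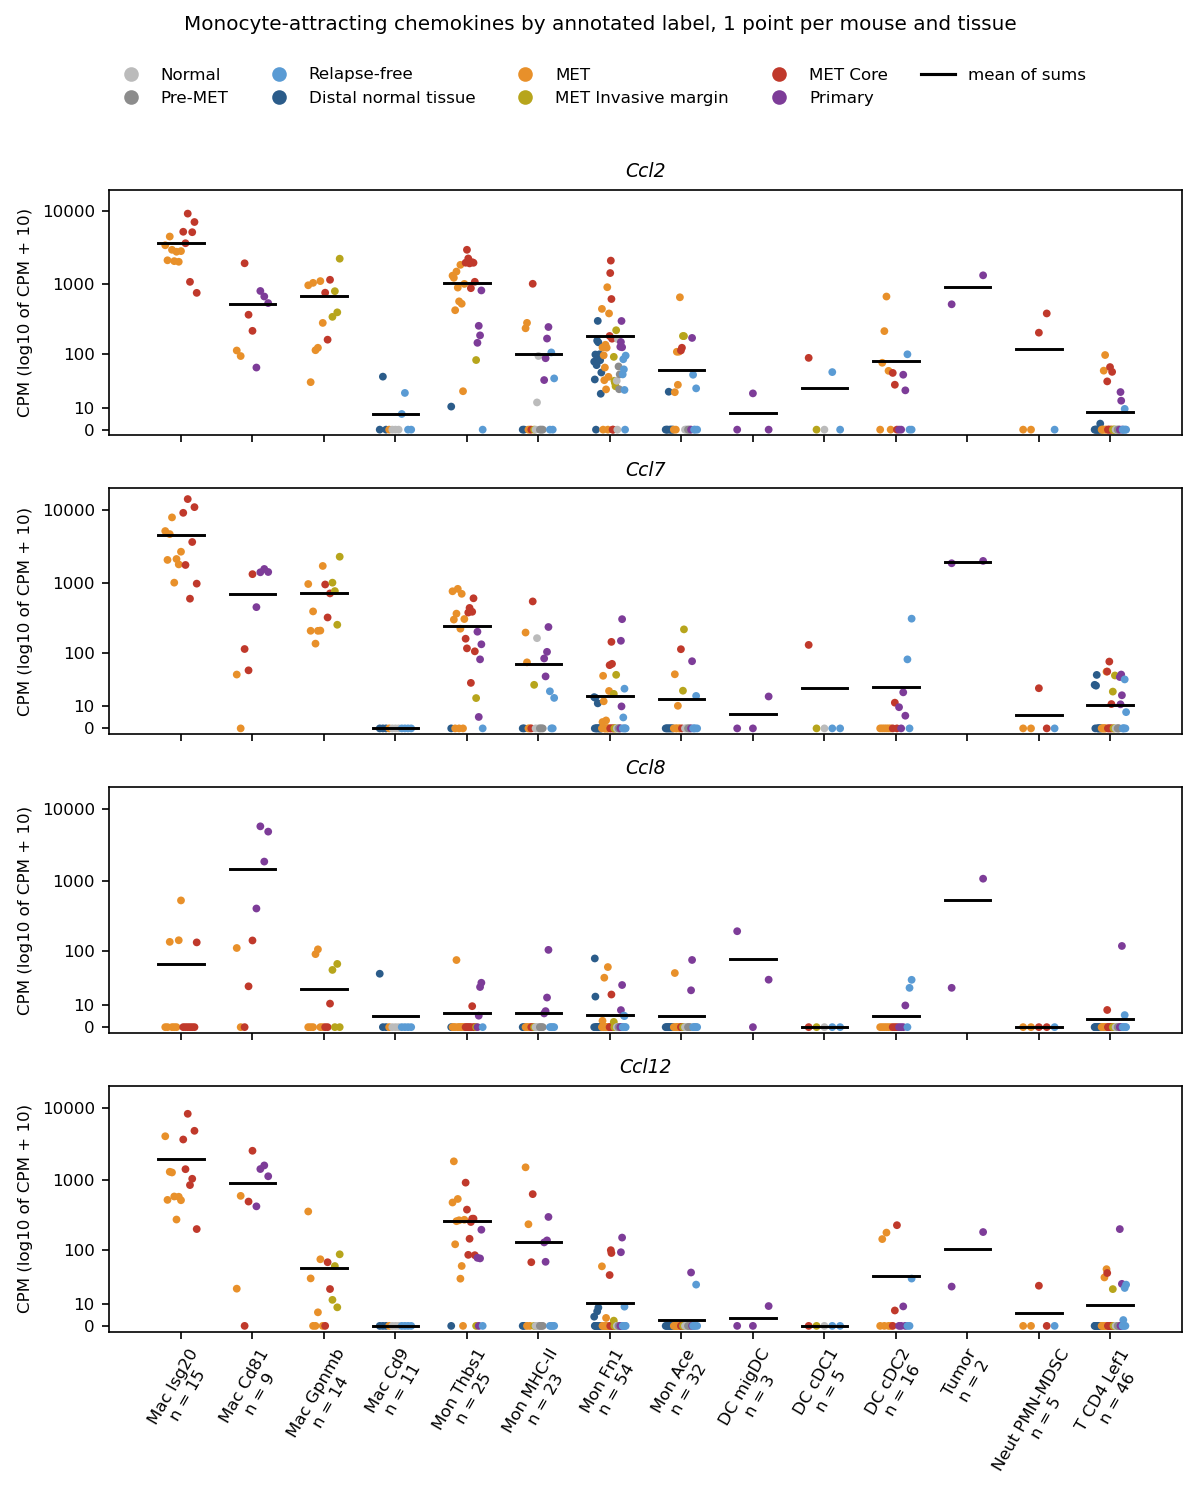
Level of Ccl2, Ccl7, Ccl8 and Ccl12 in CPM by cell label on a log10(CPM + 10) axis, 1 point per sum of 1 mouse and tissue, coloured by tissue, with a bar at the mean of each label. Mac Isg20 leads for Ccl2 (mean 3668 CPM), Ccl7 (4582) and Ccl12 (1953), and Mac Cd81 leads for Ccl8 (1466). All Mac Isg20 sums are from MET and the MET Core.

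Within the same sample, where labels shared the mouse and tissue, the same differences were seen for Ccl2, Ccl7 and Ccl12. Mac Isg20 exceeded Mac Gpnmb in 8 of 9 samples for Ccl2 and in 9 of 9 for Ccl7 and Ccl12, by a mean log2 difference in level of 2.76, 2.72 and 5.08. Mac Isg20 exceeded Mon Thbs1 in 14 of 15 samples for Ccl2 and in 15 of 15 for Ccl7 and Ccl12, with the widest gap for Ccl7 (4.04). Mac Cd81 exceeded Mac Isg20 in 1 of 5 samples for Ccl12 and in none for Ccl2 and Ccl7. For Ccl8 it was higher in 3 of 5 and equal in 2, at a mean of 56.9 CPM against 0, so this rests on few counts. Mon Thbs1 exceeded Mon Fn1 for Ccl2 in 16 of 22 samples.

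Of the cells with a Tumor label, 2 Primary sums (mice 10 and 38, of 46 and 12 cells) reached 10 cells. They held 1853 and 1995 CPM of Ccl7, 519 and 1313 of Ccl2, and 24.7 and 1088 of Ccl8. For Ccl7 these sums lay under the mean of Mac Isg20 and above the means of all other labels. The keratin Krt8 was at 302 CPM there, while Krt18, Krt7 and Epcam, which mark breast epithelium, were at 0 and the fibroblast collagens Col1a1, Col1a2 and Col3a1 at 346, 623 and 739 CPM. In mouse 38, 1 of the 12 cells gave 53.2% of the members' UMIs. Whether these counts belong to the tumor line was not tested.

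The labels were checked against marker lists. The macrophage list (10 genes such as Adgre1 and C1qa) had 9 members with counts in Mac Isg20 and a summed level of 2783 to 8994 CPM over sums, beside 1295 to 4789 for the monocyte list, and the alveolar macrophage gene Marco was at 0. The macrophage list reached 6253 to 29778 CPM in Mac Cd81 and 7216 to 41239.7 in Mac Gpnmb. Mac Isg20 therefore had the lowest range of this summed level of these 3 labels along with the highest mean Ccl2, Ccl7 and Ccl12. Apoe had the highest mean of the list in each (2007 CPM in Mac Isg20, 7057 in Mac Cd81 and 13434.5 in Mac Gpnmb). Single markers varied. Mac Isg20 exceeded Mac Cd81 in mean Trem2 (185 against 68.8 CPM), Gpnmb (204 against 42.7), Mertk (14.5 against 5.91) and Chil3 (380 against 74.5). It was lower in Adgre1, Apoe and the C1q genes.

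Few labels held most of the members' counts. Mac Isg20 was 2.06% of the annotated cells and held 35.0% of the Ccl2 UMIs, 46.4% of Ccl7 and 32.4% of Ccl12. Mac Cd81 was 1.70% of the cells and held 91.9% of the Ccl8 UMIs, 45.2% of Ccl12 and 25.5% of Ccl7. Mon Thbs1 was 4.62% of the cells and held 26.5% of the Ccl2 UMIs.

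**Figure D2:**
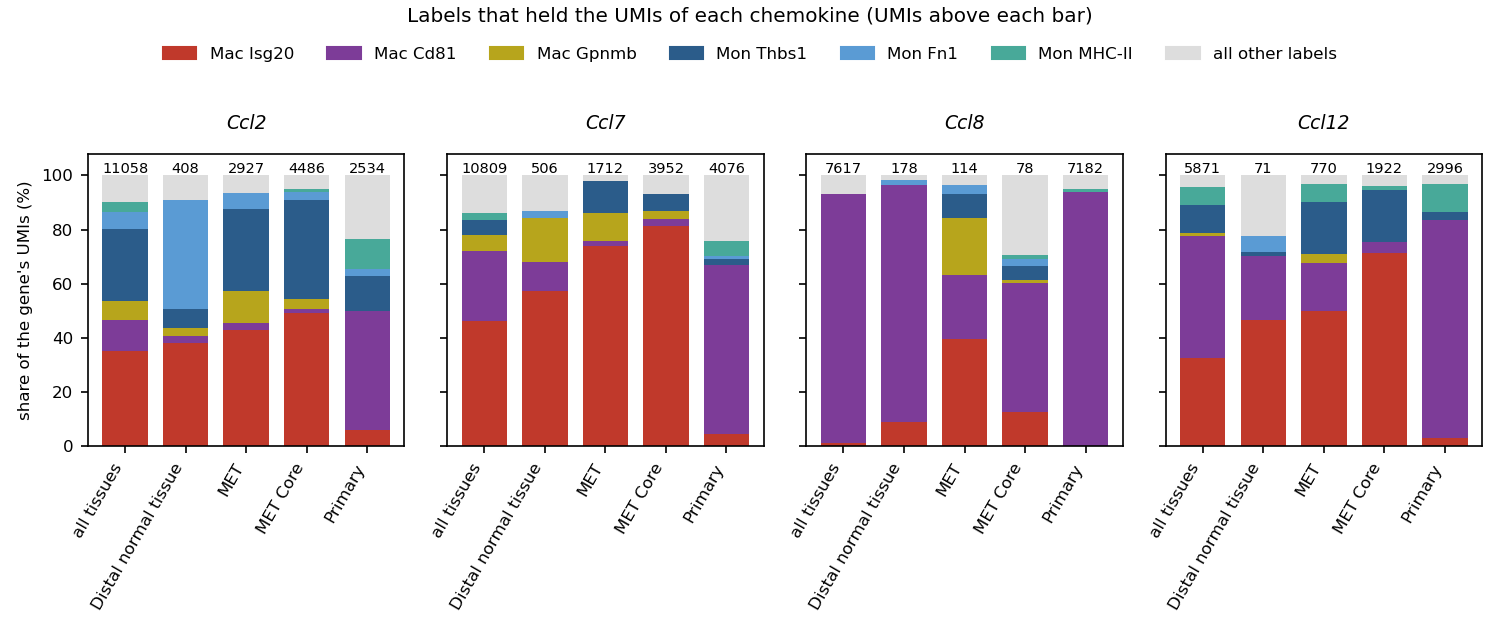
Percent of each member's UMIs held by each of 6 cell labels and by all others, as stacked bars for all cells, Distal normal tissue, MET, MET Core and Primary, with the number of UMIs above each bar. Mac Isg20 holds 81.4% of the Ccl7 UMIs of the MET Core, and Mac Cd81 holds 93.9% of the Ccl8 UMIs of Primary tumors.

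These shares differed by tissue. In the MET Core, Mac Isg20 held 49.2% of the Ccl2, 81.4% of the Ccl7 and 71.4% of the Ccl12 UMIs, and Mon Thbs1 36.5% of the Ccl2. In the MET Invasive margin, Mac Gpnmb led with 47.1% of Ccl2 and 61.3% of Ccl7. In Primary tumors, Mac Cd81, 9.82% of the cells, held 44.2% of Ccl2, 62.3% of Ccl7, 93.9% of Ccl8 and 80.4% of Ccl12. In Distal normal tissue, Mon Fn1 held 40.2% of the Ccl2 UMIs, 7 Mac Isg20 cells held 38.2% of the Ccl2 and 57.3% of the Ccl7, and 22 Mac Cd81 cells held 87.6% of the Ccl8, where 1 cell gave 154 of their 156 UMIs. In MET, Ccl8 had 114 UMIs, of which Mac Isg20 held 39.5% and Mac Cd81 23.7%, with up to 29 and 16 UMIs from 1 cell, so no label's lead in Ccl8 is read there.

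The share of cells with at least 1 UMI depends on depth, so it was also computed after thinning each cell to 500 UMIs. In Mac Isg20, 61.3% of 494 cells had a Ccl2 UMI (47.6% thinned), 46.0% a Ccl7 UMI (38.5%), 28.3% a Ccl12 UMI (20.6%) and 2.02% a Ccl8 UMI (1.21%). In naive CD4 T cells (T CD4 Lef1), which should lack these genes, the shares over all tissues were 0.595%, 1.09%, 0.760% and 0.198%. Their median was 933.5 UMIs per cell against 1334 in Mac Isg20. Shares at that size are read as background for all tissues together, not for a single tissue.

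In Mac Cd81 (median 2327 UMIs), 27.1%, 26.4%, 18.3% and 29.1% of 409 cells had a UMI of Ccl2, Ccl7, Ccl8 and Ccl12 (12.5%, 15.6%, 11.2% and 16.1% thinned). In Mon Thbs1 (median 1744), 33.5% had a Ccl2 UMI (22.7% thinned) and 9.11% a Ccl7 UMI (4.24%). In Mon Fn1, 6.94% had a Ccl2 UMI (3.67%). Mac Cd9 stayed at or under 1.37% for every member at a median of 1645 UMIs. In Primary alone, 26.9%, 23.1% and 15.4% of 26 Mac Isg20 cells had a UMI of Ccl2, Ccl7 and Ccl12 (11.5% each thinned). Of 160 Mac Cd81 cells there, 41.25%, 45.0% and 50.0% did (15.0%, 23.8% and 24.4% thinned). The lead of Mac Isg20 was thus not seen in these shares of Primary cells.

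**Figure D3:**
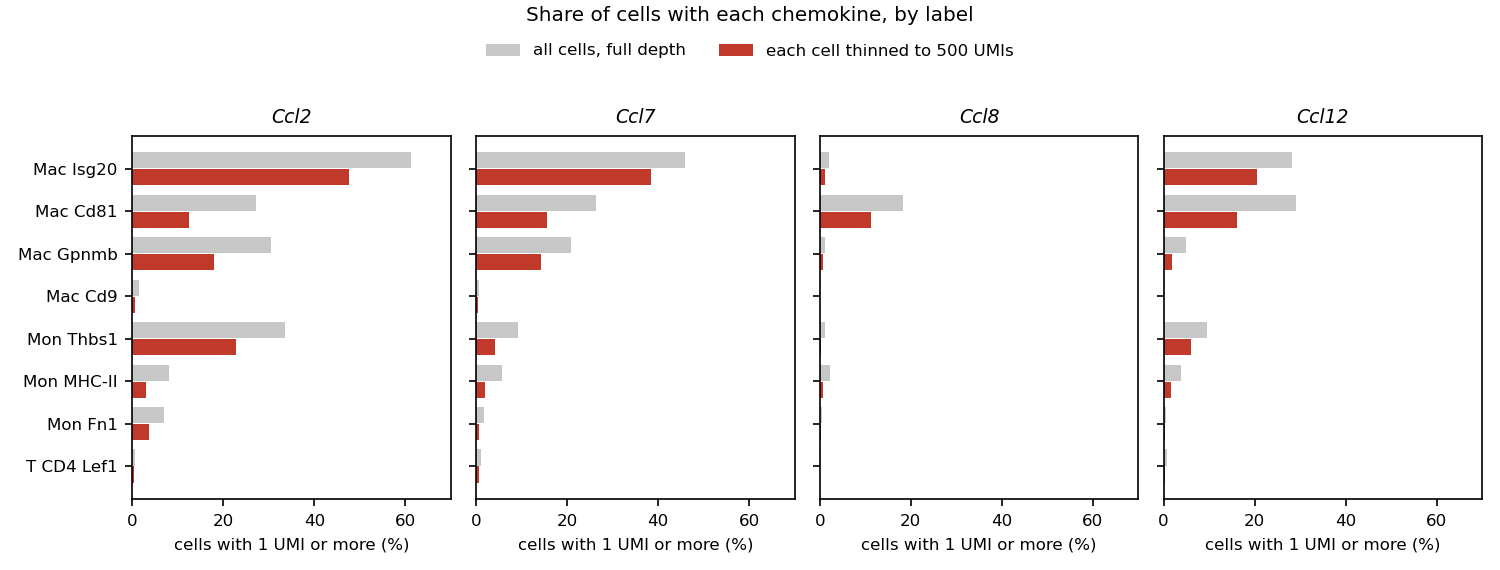
Percent of cells with at least 1 UMI of each member by label, as measured and after thinning to 500 UMIs per cell, with T CD4 Lef1 cells as background. Mac Isg20 reaches 61.3% for Ccl2 (47.6% thinned), and Ccl8 exceeds 10% only in Mac Cd81.

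Within a label the counts were uneven. In Mac Isg20, 29.4% of cells had no member, 46.4% had at least 2 members, and the 10% of cells with the most member UMIs held 63.0% of them. In Mac Cd81, 52.6% had none, 6.36% had all 4, and the top 10% held 83.7%. A single Mac Cd81 cell held up to 1353 Ccl8 UMIs.

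Several members often occurred in the same cells, which were also the deeper ones. Of the 303 Mac Isg20 cells with Ccl2, 64.0% also had Ccl7 and 40.3% Ccl12, against 17.3% and 9.42% of the 191 cells without Ccl2 (median 1511 against 1128 UMIs). Of the 75 Mac Cd81 cells with Ccl8, 62.7% had Ccl12, 61.3% Ccl7 and 50.7% Ccl2, against 21.6%, 18.6% and 21.9% of the others (median 6355 against 1950 UMIs). Ccl8 in Mac Isg20 did not follow this for Ccl2 and Ccl7: of its 10 cells with Ccl8, 60% had Ccl2, 50% Ccl7 and 60% Ccl12, against 61.4%, 45.9% and 27.7% of the others (median 2793 against 1324 UMIs). The part of depth in this co-occurrence was not tested.

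Across 28 labels with at least 3 sums, Pearson's r of log2(mean CPM + 10) was 0.87 for Ccl2 with Ccl7, 0.84 for Ccl7 with Ccl12 and 0.80 for Ccl2 with Ccl12. Ccl8 stood further off, at 0.46, 0.55 and 0.68 with Ccl2, Ccl7 and Ccl12. These r values are descriptions, since labels share libraries and depth. Among 14210 genes, those nearest to Ccl2 were C3ar1 (the C3a receptor, 0.93), Msr1 (a scavenger receptor, 0.91), Tpi-rs11 (0.91), Raet1d and Nt5dc2 (both 0.89). Those nearest to Ccl7 were Pf4 (a platelet and macrophage chemokine, 0.91), C1qb (complement, 0.90), Stab1 (a scavenger receptor, 0.89), Nt5dc2 (0.89) and Rai14 (0.88). Those nearest to Ccl12 were Cfb (complement factor B, 0.88), Slc4a11 (0.87), Stab1 (0.87), Nectin4 and Ms4a7 (both 0.85). The genes nearest to Ccl8 (AC153955.6 at 0.89, Gm20481, Asb12, Hoxd8 and Zfp704) reached means of only 24 to 32 CPM in Mac Cd81, their highest label, so their place rests on few counts.

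Over all annotated cells of a tissue, the members were low in lungs without metastases. Ccl2, Ccl7 and Ccl12 were highest in MET, the MET Core and Primary. Ccl8 was high in Primary only, with 15.9 CPM in MET and 13.4 in the MET Core. Ccl2 was at 5.40 CPM in Normal, 15.5 in Relapse-free, 24.5 in Pre-MET, 55.3 in Distal normal tissue, 151 in the MET Invasive margin, 409 in MET, 773 in the MET Core and 285 in Primary. Ccl7 ran from 0.481 in Pre-MET to 681 in the MET Core. Ccl12 was at 331 in the MET Core and 337 in Primary, and Ccl8 was at 808 in Primary and at most 24.1 elsewhere. These pooled values have no replicate error. Ccl8 and Ccl12 had 0 UMIs in the labelled Normal and Pre-MET cells, which allows up to 1.08 and 1.44 CPM (3 counts, counting error only).

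For the tests, the macrophage labels of a sample were summed, and likewise the monocyte labels, and groups were compared with edgeR's quasi-likelihood test over mice, with p-values adjusted by Benjamini-Hochberg over all genes tested. A member was tested where it passed the filter on low counts, and folds are log2. In such sums, more cells of a high label and more RNA per cell of a label cannot be told apart.

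**Figure D4:**
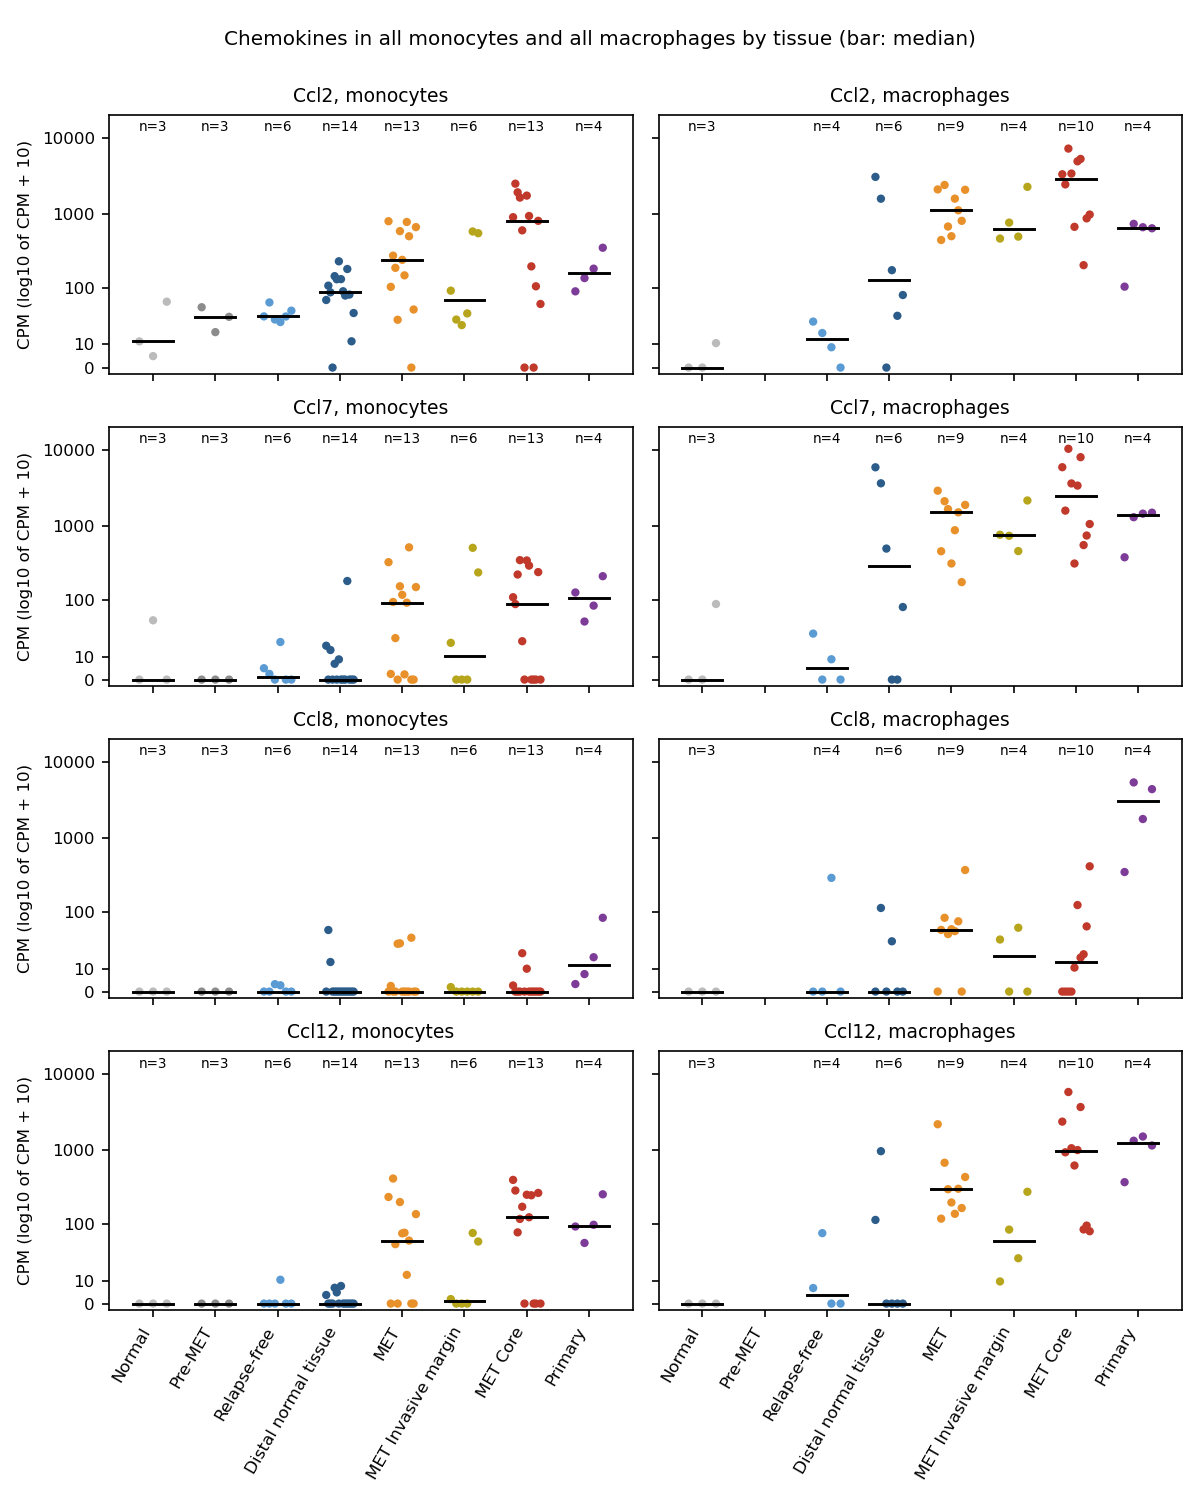
Level of each member in summed monocytes and summed macrophages by tissue on a log10(CPM + 10) axis, 1 point per mouse, with a bar at the median of each group. Ccl8 in macrophages is at 353 to 5339 CPM in the 4 Primary samples and at 0 to 421 in the 10 MET Core samples.

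Monocytes of metastases held more Ccl2 than monocytes of distal lung. Monocyte Ccl2 was lowest at 0, at a median of 244 and highest at 801 CPM in 13 MET samples, and at 0, 87.4 and 233 in 14 Distal normal tissue samples. The groups overlapped, and in 11 of the 13 mice with both tissues MET was the higher, with mice 27 (32.0 against 132) and 34 (0 against 79.6) the exceptions. Ccl2 rose in MET by 1.90 (SE 0.44, adjusted p = 0.0154, edgeR), 1 of 4 members called where 1.48% of 2098 genes were called. It missed the threshold with cells of at least 1000 UMIs (1.84, adjusted p = 0.0509), and without the highest cell of each sum it did not pass the filter.

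Ccl7 (114 ± 155 against 16.4 ± 48.4 CPM) and Ccl12 (96.7 ± 124 against 1.43 ± 2.51) did not pass the filter without pairing. With the mouse as a block over 13 pairs, the filter was set anew and needed counts in fewer sums. Both passed it there, through the MET sums where they were high, so their passing is not read as support. In that fit Ccl7 rose by 3.89 (adjusted p = 2.68e-06, edgeR) and Ccl12 by 4.69 (adjusted p = 6.06e-07), beside 1.57 for Ccl2 (adjusted p = 3.55e-05). Each was higher in MET in 9 of the 13 mice, lower in 1 and equal in 3. Ccl8 held 16 and 3 UMIs in all and was not tested.

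**Figure D5:**
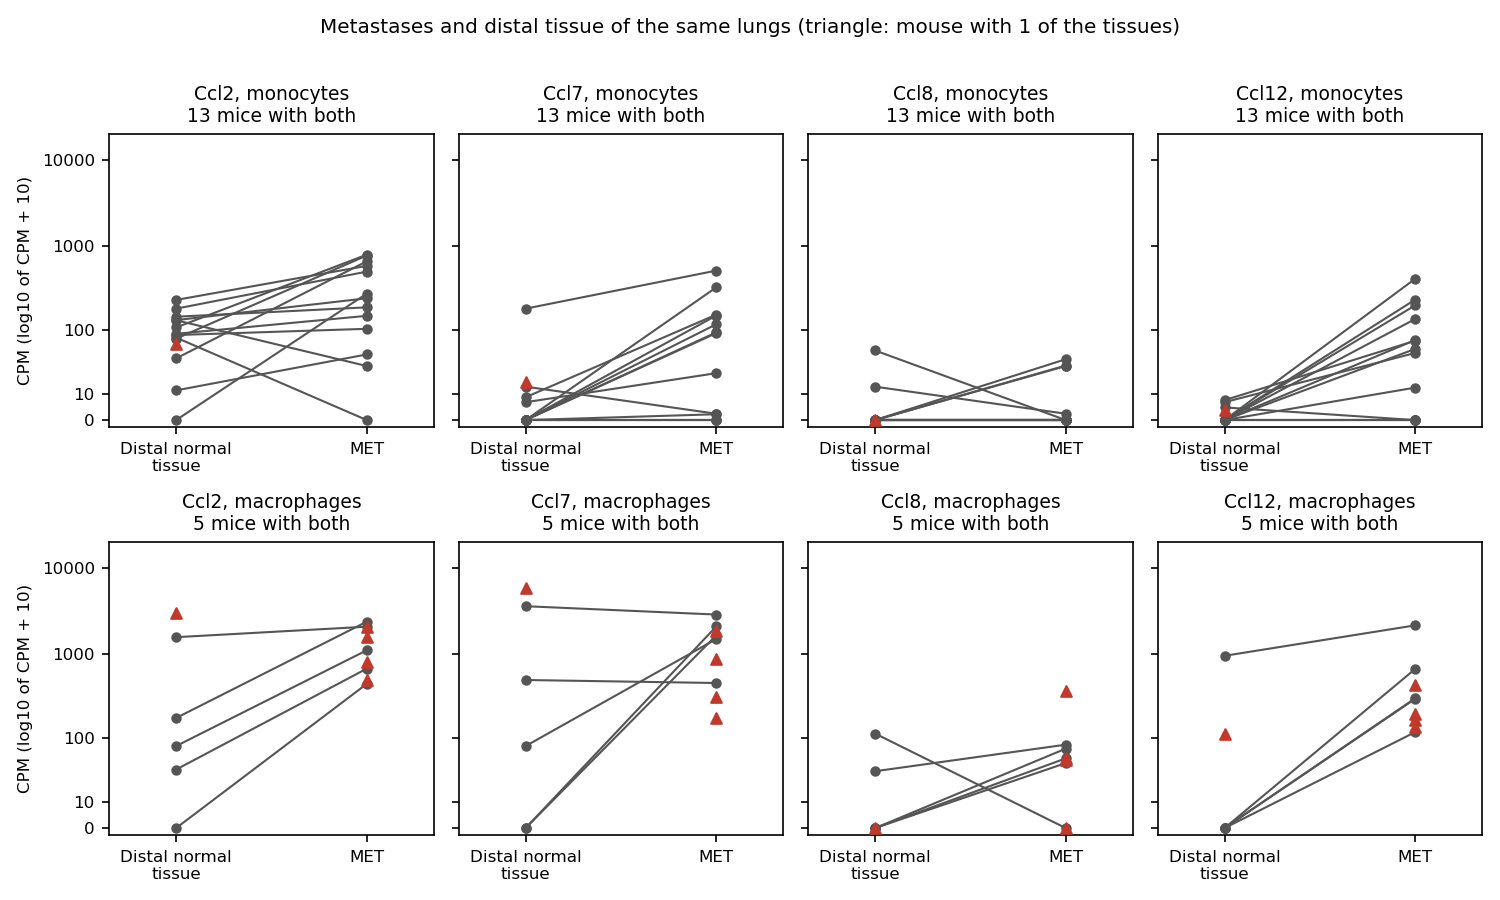
The 4 members in Distal normal tissue and MET in monocytes and macrophages on a log10(CPM + 10) axis, with a line per mouse and triangles for mice with a sum in only 1 of these tissues. Monocyte Ccl2 is higher in MET in 11 of 13 mice and macrophage Ccl2 in 5 of 5.

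The label makeup differed by tissue. Mon Thbs1 was a median of 23.9% of monocytes in MET and 2.91% in Distal normal tissue. Within Mon Fn1 alone, Ccl2 was 183 ± 256 in MET and 94.0 ± 76.8 CPM in Distal normal tissue (n = 13 each). No member passed the filter there, and 0 of 1292 genes (0%) were called by edgeR, with 17 at an unadjusted p under 0.05 and 0 by DESeq2. With the mouse as a block, Mon Fn1 Ccl2 differed by 0.14 (adjusted p = 0.999). Within Mon Thbs1, Ccl2 was 926 ± 548 CPM in 10 MET sums against 10.7 in the only distal sum (12 cells of mouse 36). A single distal sum was too few for a test and is not read as the level of all distal cells of this label. All 50 distal Mon Thbs1 cells together held 29 Ccl2 UMIs, up to 13 of them in 1 cell. Of these cells, 18% had a Ccl2 UMI (4% thinned), against 29.2% of 384 cells in MET (20.8% thinned). These shares pool mice and were not tested.

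Macrophages of MET and Distal normal tissue were compared in 9 and 6 mice. Macrophage Ccl2 in MET was lowest at 451, at a median of 1117 and highest at 2399 CPM. In Distal normal tissue it was 3061, 1585, 0, 176, 37.3 and 78.4 CPM in mice 17, 23, 26, 28, 30 and 33. The first 2 of these mice lay within or above the MET range and the other 4 below it. The difference of 0.71 (SE 0.66, adjusted p = 0.594) did not pass the test, nor did Ccl7 (-0.25, SE 0.77, adjusted p = 0.90) or Ccl12 (1.74, SE 0.84, adjusted p = 0.214), where 9.54% of 1289 genes were called by edgeR. Ccl8 (81.8 ± 114 against 24.8 ± 45.6 CPM) did not pass the filter.

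These calls changed in a fit over the mice with both tissues, which left out the unpaired sums, among them the distal sum of mouse 17. The part of the block and the part of the sums left out were not told apart. With the mouse as a block over 5 pairs, Ccl2 rose by 2.93 (adjusted p = 3.06e-06, edgeR), Ccl7 by 2.63 (adjusted p = 9.17e-05) and Ccl12 by 3.11 (adjusted p = 7.23e-05). Ccl2 and Ccl12 were higher in MET in 5 of 5 mice and Ccl7 in 3 of 5, with mouse 23 (2901 against 3623 CPM) and mouse 26 (462 against 501) the exceptions. The distal sum of mouse 17, which has no MET sample, held 10 cells, 1 of which gave 75.2% of the members' UMIs, and without it Ccl2 rose by 2.06 unpaired (adjusted p = 0.0445). Without the distal sum of mouse 23, Ccl12 rose by 4.00 (adjusted p = 0.0120). Without the highest cell of each sum, Ccl2 rose by 2.80 (adjusted p = 0.0196).

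The macrophage labels differed between these tissues too. Mac Cd9, in which the members were near 0, was a median of 71.3% of macrophages in Distal normal tissue, and Mac Isg20 was 44.0% in MET and 7.42% in Distal normal tissue. No Mac Isg20 sum of 10 cells existed in Distal normal tissue, so its level there was not compared. Summed tumor and epithelial markers (Krt8, Krt18, Krt7 and Epcam) in macrophages were at 0 to 15.4 CPM in MET, with 2 of 4 genes counted, and at 0 to 261 in Distal normal tissue, where only Epcam was counted. By label, Epcam had a mean of 95.7 CPM in Mac Cd9 and 0 in the Tumor label. The source of the distal Epcam counts was not tested.

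The tissue effects in macrophages and monocytes were compared with each other in 1 fit with the sample as a block, where 3.68% of 4756 genes were called. The effect of MET on Ccl7 was smaller in macrophages than in monocytes by 3.08 (log2 difference -3.08, SE 0.85, adjusted p = 0.0254, edgeR). It rested on the distal sum of mouse 17, without which it was -0.81 (adjusted p = 0.760), and it missed the threshold without the distal sum of mouse 23 (-2.90, adjusted p = 0.0721). Over the 5 mice with both tissues, with the mouse as a block, it was -0.62 (adjusted p = 0.862). It was not called by DESeq2 (-0.74, adjusted p = 0.846), and with cells of at least 1000 UMIs it was 6.84 (adjusted p = 0.571). Ccl2 (0.34, adjusted p = 0.852), Ccl8 (3.32, adjusted p = 0.473) and Ccl12 (-1.66, adjusted p = 0.405) did not pass the test.

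Other genes of the pathway were read from fixed lists. Over all 1289 genes tested in macrophages, the median log2 difference was 0.15 and 9.54% were called. Of 10 other CC chemokines, 4 were tested in macrophages of MET against Distal normal tissue: Ccl4 (a macrophage inflammatory protein) rose by 2.32 (adjusted p = 0.0370, edgeR), Ccl6 fell by 1.23 (adjusted p = 0.0151) and Ccl9 was at 1.20 (adjusted p = 0.0937). Of 16 NF-kB and inflammatory cytokine genes, 6 were tested and Il1b rose by 2.70 (adjusted p = 0.000835), with Nfkbia at 1.31 and Cxcl2 at 0.94 not passing. Of 12 type I interferon response genes, 6 were tested with a median of 2.38 and Isg15 rose by 2.89 (adjusted p = 0.0360), with Rsad2 at 2.60 (adjusted p = 0.0633) and Cxcl10 at 2.27 (adjusted p = 0.0968).

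In monocytes of the same tissues, 1 of 4 other CC chemokines tested rose (Ccl4, 2.04, adjusted p = 0.00181, edgeR), 0 of 8 NF-kB genes and 4 of 6 interferon genes (Ifit3, Isg15, Isg20 and Cxcl10, the last by 2.78). The median over all genes tested there was 0.00, and 1.48% of 2098 genes were called.

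Between the MET Core and the MET Invasive margin, Ccl2, Ccl7 and Ccl12 varied widely among mice, and Ccl8 had few counts in both (78 and 21 UMIs over all cells). Macrophage Ccl12 in the Core was lowest at 77.9, at a median of 963 and highest at 5744 CPM over 10 mice, and in the margin it was 9.44, 82.3, 29.0 and 277 CPM in mice 17, 32, 33 and 36. The groups overlapped, with 3 of the 4 margin samples under 100 CPM. The difference was 3.87 (SE 1.09, adjusted p = 0.160, edgeR; 3.74 with adjusted p = 0.0318 by DESeq2). With the block, 2 pairs gave 2.36 (adjusted p = 1). These 2 mice went opposite ways: in mouse 17 the Core was higher for Ccl12 (2354 against 9.44 CPM), Ccl2 (3315 against 472) and Ccl7 (5883 against 765), and in mouse 36 the margin was higher for Ccl12 (277 against 94.0), Ccl2 (2268 against 874) and Ccl7 (2159 against 747).

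Macrophage Ccl2 (2921 ± 2321 against 1002 ± 854 CPM) differed by 1.42 (SE 0.68, adjusted p = 0.476) and Ccl7 (3534 ± 3446 against 1032 ± 763) by 1.66 (SE 0.74, adjusted p = 0.432). With a batch term the Ccl2 difference was -0.44. Of 1743 genes, 0 (0%) were called by edgeR, with 178 at an unadjusted p under 0.05 and 39 by DESeq2. Mac Isg20 was a median of 60.8% of macrophages in the Core, and Mac Gpnmb 76.9% in the margin.

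Monocyte Ccl2 was lowest at 0, at a median of 811 and highest at 2495 CPM in 13 Core samples, and at 25.8, 65.8 and 587 in 6 margin samples. The groups overlapped, and Core was higher in 5 of 5 mice with both. The difference was 2.10 (SE 0.80, adjusted p = 0.476), where 0 of 1025 genes (0%) were called by edgeR, with 84 at an unadjusted p under 0.05 and 5 by DESeq2. With the mouse as a block over 5 pairs, Ccl2 rose in the Core by 2.83 (adjusted p = 0.0022, edgeR) and Ccl12 by 5.21 (adjusted p = 0.000476), and Ccl7 was at 1.87 (adjusted p = 0.151). Ccl12 (150 ± 134 against 21.5 ± 33.4 CPM) did not pass the filter without the block. With the block the filter needed counts in fewer sums, so its passing there is not read as support.

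Within Mon Fn1, Ccl2 was 639 ± 813 CPM in 7 Core sums and 82.6 ± 82.1 in 5 margin sums. No member passed the filter, and 0 of 538 genes (0%) were called by edgeR, with 26 at an unadjusted p under 0.05 and 0 by DESeq2. Mon Thbs1 was a median of 35.7% of monocytes in the Core and 7.38% in the margin, where a single sum existed. The effects of Core against margin did not differ between macrophages and monocytes for Ccl2 (-0.60), Ccl7 (0.81) or Ccl12 (0.21) past the threshold (adjusted p from 0.969 to 0.995), where 0.0289% of 3458 genes were called. No gene of the receptor, chemokine, NF-kB or interferon lists was called in either lineage.

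Levels of Mac Isg20 within metastases were given by mouse, since this label led for 3 members. In 8 MET sums, Ccl2 was lowest at 2021, at a median of 2808 and highest at 4508 CPM, and in 7 Core sums at 749, 5169 and 9318. Ccl7 in the Core ran from 597 to 14192 CPM and Ccl12 from 204 to 8223. Mouse 24 was the highest Core sum for Ccl2, Ccl7 and Ccl12, and mice 26 and 36 were the lowest for Ccl2 and Ccl7. The Core range thus enclosed the MET range for all 3 genes.

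Primary tumors were set against the MET Core. Macrophage Ccl8 was 353, 5339, 1772 and 4363 CPM in the Primary samples of mice 8, 9, 10 and 38, and lowest at 0, at a median of 14.1 and highest at 421 in 10 Core samples. Only mouse 8 fell within the Core range. Ccl8 was higher in Primary by 5.43 (SE 0.77, adjusted p = 0.000238, edgeR), where 4.53% of 2162 genes were called, and DESeq2 gave 5.35 (adjusted p = 0.00598). Leaving out any 1 sample gave 5.01 to 6.70.

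Batch and tissue overlapped in this comparison. Mice 9, 10 and 38 were sequenced in a batch without Core samples, and with a batch term Ccl8 differed by 0.68 (adjusted p = 0.780). In the only batch with both tissues, Ccl8 was 353 CPM in Primary mouse 8 and 60.9 and 421 in the Core. For mice 9, 10 and 38 batch and tissue cannot be told apart. By the paper's methods, tumors and lungs were also dissociated with different programs, so dissociation and tissue cannot be told apart for any Primary sample.

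Macrophage Ccl2 went the other way, at 104, 739, 667 and 646 CPM in Primary and 207, 2879 and 7180 in the Core (lowest, median, highest). It was lower in Primary by 2.37 (log2 difference -2.37, SE 0.68, adjusted p = 0.0441, edgeR), but it was not called without any 1 of the 4 Primary mice (adjusted p from 0.0990 to 0.119) or with the batch term (adjusted p = 0.113). Ccl7 (-1.56, adjusted p = 0.243) and Ccl12 (-0.48, adjusted p = 0.830) did not pass the test. Of the members, 1 was thus higher and 1 lower.

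Mac Cd81 was a median of 83.0% of macrophages in Primary and 18.8% in the Core, and Mac Isg20 12.6% and 60.8%. Within Mac Cd81 itself, Ccl8 was 418, 5750.5, 1878 and 4862 CPM in the 4 Primary sums, 112 and 0 in the MET sums of mice 26 and 31, and 0, 26.4 and 145 in the Core sums of mice 24, 26 and 30. All 4 Primary sums exceeded all 5 metastasis sums. How many other genes separated these sums was not counted, and no test was run within this label. Batch, depth and dissociation also differed between Primary and metastasis samples, as given above. The share of Mac Cd81 cells with a Ccl8 UMI was 36.9% in Primary (22.5% thinned), 7.59% in the Core (5.06%) and 5.21% in MET (2.08%). Ccl7 in Mac Cd81 was 454, 1389.6, 1545 and 1402 CPM in Primary, 45.0 and 0 in MET and 113, 52.8 and 1309 in the Core, so all 4 Primary sums exceeded 4 of the 5 metastasis sums and the Core sum of mouse 30 lay among them. A Ccl7 UMI was found in 45.0% of these cells in Primary (23.8% thinned), 18.99% in the Core (16.5%) and 12.5% in MET (6.25%). Ccl2 and Ccl12 overlapped more widely, with Ccl2 at 516 ± 321 CPM in Primary (n = 4), 838 ± 946 in the Core (n = 3) and 112 and 92.7 in MET, and Ccl12 at 1145 ± 514, 1016 ± 1348, and 22.5 and 603.

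In monocytes of Primary and the Core, 1.47% of 1835 genes were called and none of the 3 members tested. Monocyte Ccl2 was 88.8, 137, 185 and 356 CPM in the 4 Primary samples, within the lower part of the Core range. The difference was -2.17 (SE 0.74, adjusted p = 0.156, edgeR), beside -0.30 for Ccl7 (adjusted p = 0.889) and -0.48 for Ccl12 (adjusted p = 0.800). Ccl8 (27.3 ± 36.9 against 2.58 ± 6.35 CPM) did not pass the filter.

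Within Mon Thbs1 the groups did not overlap for Ccl2, and how many other genes separated them was not counted. It was 146, 257, 188 and 810 CPM in the Primary sums of mice 8, 9, 10 and 38, and lowest at 870, at a median of 1959 and highest at 2957 in 8 Core sums. Ccl2 was lower in Primary by 2.33 (log2 difference -2.33, SE 0.44, adjusted p = 0.0112, edgeR), where 1.24% of 2345 genes were called. It was not called without Primary mouse 10 (-2.03, adjusted p = 0.0647) or with a batch term (-2.70, adjusted p = 0.485). Ccl7 (-1.31, adjusted p = 0.326) and Ccl12 (-1.88, SE 0.66, adjusted p = 0.173) did not pass the test.

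Of 5 other CC chemokines tested in macrophages, Ccl3 and Ccl6 were lower in Primary by 2.19 and 2.00. Of 7 NF-kB genes tested, Nfkbia and Cxcl2 were lower by 1.80 and 3.14, and none of 11 interferon genes was called. Over all 2162 genes tested there, 4.53% were called. In Mon Thbs1, Ccl4, 1 of 5 tested, fell by 2.26 (adjusted p = 0.0433, edgeR), where 1.24% of 2345 genes were called. Batch and tissue overlapped in these comparisons, as for Ccl8.

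Monocytes of lungs before metastasis held few counts of the members. Monocyte Ccl2 was 51.3, 19 and 35.9 CPM in the 3 Pre-MET mice and 12, 4.11 and 62.4 in the 3 Normal mice. The groups overlapped, and the difference of 0.53 (SE 0.86, adjusted p = 0.793, edgeR) did not pass the test, where 4.32% of 4953 genes were called. Leaving out 1 mouse in turn gave -0.032 to 2.17, so 3 against 3 mice did not fix its size. No sequencing batch held both groups, so batch and group cannot be told apart in any result between them. Ccl7 had 12 UMIs in 1 Normal mouse and 0 in Pre-MET, and Ccl8 and Ccl12 had 0 in both.

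The label with the most of a receptor was not the label with the most of its ligand, though labels rich in the ligands held receptors too. Ccr2, the receptor of Ccl2, Ccl7 and Ccl12, was highest in Mon Fn1 (826 ± 292 CPM, n = 54). It was followed by Mon MHC-II (672), Mon Thbs1 (614), Mac Cd81 (494) and Mac Isg20 (394), and was at 34.5 in Mac Cd9. Mon Fn1 thus held the most Ccr2 beside 182 CPM of Ccl2, and Mac Isg20 the most Ccl2 beside less Ccr2. Ccr1 was highest in neutrophils (1096 CPM in Neut PMN-MDSC and 1065 in Neut Ptgs2) and was at 404 in Mon Thbs1 and 363 in Mac Isg20. Ccr8, the receptor of Ccl8, was highest in regulatory T cells (395 ± 235 CPM). Ccr8 was at 0 in Mac Cd81, the label that led for Ccl8.

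Ccr3 was highest in Neut PMN-MDSC (219 ± 449 CPM), with counts in 2 of 5 sums. The scavenging receptor Ackr1, known from endothelium (CD31+ cells, outside the sort), was at 0 in every label, and Ackr2 and Ackr4 were at most 8.96 and 0.895 CPM. Ccr1 rose in Pre-MET monocytes against Normal (2.82, SE 0.76, adjusted p = 0.0454, edgeR), where the groups shared no sequencing batch.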

How the data were processed

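Plates were prepared by SPID-seq, a 3' single-cell method with UMIs. The authors demultiplexed with bcl2fastq 2.15.0.4, mapped reads to mm10 with HISAT, discarded reads that mapped to several places, assigned reads to exons and deposited raw UMI counts per gene and well with a table of cell labels, per the labels and the methods. Doublets were gated out at the sort, per the labels, and no doublet caller was run. From the deposited counts, wells with a label were summed per mouse, tissue status and label, with sums of at least 10 cells, and divided by their total (CPM). The 92 spike-in rows held 0 counts. The study's own method, a rank test over cells, was replaced by tests over mice.

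Groups were compared with edgeR 4.0.16 in R 4.3.3 (TMM, filterByExpr, quasi-likelihood test, Benjamini-Hochberg over all genes tested, called at adjusted p under 0.05), and the SE is the fold divided by the root of the F value. DESeq2 1.42.0, no filter, the mouse as a block, cells of at least 1000 UMIs, sums of at least 20 cells, a batch term and leaving out each replicate were alternatives, and leaving out the highest cell of each sum was added after seeing the data, as were leaving out each replicate in groups of 6 to 10 and the mouse block and left-out samples of the comparison between lineages. Of 13 comparisons planned, 3 had too few sums. Tests were checked on simulated data. Python 3.11.15, pandas 2.3.3 and numpy 2.4.6 were used elsewhere. MET and Distal normal tissue, and Core and margin, came from the same mice, and same-mouse samples deviated together (median correlation 0.18 over 13 monocyte pairs and 0.16 over 5 macrophage pairs for MET and Distal normal tissue, 0.47 over 5 and 0.28 over 2 for Core and margin). The members and gene lists were chosen with earlier results of these data known. Named were the 4 members, every receptor except 1 that is not reported here, the 3 genes of each other list with the smallest p in macrophages of MET against Distal normal tissue, called list genes, and the 5 genes most like each member. Nothing says that plates of a mouse were separate preparations. Intervals and limits cover counting error only.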

Additional observations from a re-analysis of the deposited data

Results flagged for a closer look

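Of 57 groups of 4 to 10 mice, each 1 gene in 1 label or lineage of a tissue, 12 held a sample far from its neighbour. Far means that the gap was large against the range of the group. The cutoffs flag about 1 in 20 by chance only for normal values in separate groups. CPM values were skewed and labels shared cells with their lineage, so 12 is not read as an excess. In summed macrophages these were Ccl8 in MET mouse 37 (375 CPM, next 81.7), Ccl12 in MET mouse 23 (2175 CPM, next 677), Ccl2 in MET Invasive margin mouse 36 (2268 CPM, next 768) and, on the low side, Ccl2 in Primary mouse 8 (104 CPM, next 646). In Mac Isg20 of MET mouse 23, Ccl12 was 4035 CPM (next 1304). In Mac Cd81 of Primary mouse 8, Ccl7 was the lowest at 454 CPM (next 1389.6).

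In monocytes, Ccl2 stood apart in Mon Fn1 of Primary mouse 10 (302 CPM, next 150.1) and in Mon Thbs1 of Primary mouse 38 (809.6 CPM, next 257). Ccl12 stood apart in Mon MHC-II of MET mouse 28 (1504 CPM), where 1 cell held 91.8% of the members' UMIs, in Mon Thbs1 of MET mouse 25 (1819 CPM), where 1 cell held 63.6%, and in Mon Thbs1 of MET Core mouse 17 (922 CPM, next 387). Ccl8 stood apart in Mon MHC-II of Primary mouse 38 (105 CPM, next 15.5).

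The effect of MET against Distal normal tissue on Ccl7 differed between macrophages and monocytes by a tested log2 difference of -3.08, which was not called without the distal sum of mouse 17 or of mouse 23, with the mouse as a block, by DESeq2 or with cells of at least 1000 UMIs.

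Members were also counted in wells that held a cell and had no label, which no comparison used. Among those under 500 UMIs, the Normal wells held 0 UMIs of each member of 314858, which allows up to 9.53 CPM (3 counts), and the values given here lay above that limit. In 5624 such wells of the MET Core, Ccl2 was at 266 CPM, Ccl7 at 198 and Ccl12 at 128. In Primary, Ccl2 was at 354 CPM, Ccl7 at 743, Ccl8 at 340.5 and Ccl12 at 151. In MET, Ccl2 was at 141 CPM, Ccl7 at 138, Ccl8 at 11.3 and Ccl12 at 58.9, and in the MET Invasive margin Ccl2 was at 51.9, Ccl7 at 16.7 and Ccl12 at 12.97. In Distal normal tissue, Ccl2 was at 19.4 CPM, Ccl7 at 22.5, and Ccl8 and Ccl12 both at 16.3. In Pre-MET, whose labelled cells held 0 UMIs of Ccl8 and Ccl12, these wells held 4 and 5 UMIs (10.4 and 12.95 CPM), with Ccl2 also at 10.4 CPM. In Relapse-free, Ccl7 was at 11.1 CPM and Ccl12 at 9.53. Wells without a cell held 1 Ccl2 UMI of 817 in the MET Core and 1 Ccl7 UMI of 1308 in MET. In Primary they held 1 Ccl7 and 1 Ccl8 UMI of 1241, and no member elsewhere. How far such stray counts reach into the wells under 500 UMIs was not tested.

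Wells of 500 UMIs or more without a label were fewer. In Primary, 71 such wells held 1429 UMIs of Ccl2 and 1556 of Ccl7 (975 and 1062 CPM), beside 2534 and 4076 in the labelled Primary cells. In MET, 19 such wells held 98 UMIs of Ccl2 and 224 of Ccl7 (530.1 and 1212 CPM). The Normal wells of this kind held 0 of 8727 UMIs, which allows up to 344 CPM. What cells these were was not tested.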

How the results depend on the processing

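The fold changes of the members had 322 alternative values, of which 281 kept direction and side of the threshold, 17 lost the call, 13 gained it and 11 turned direction. The label with the highest mean was the same for each member in all 4 alternatives. The mouse block, fitted only to mice with both tissues, changed the member calls given with the results and changed no other member call. The number of genes tested differed by setting and is not listed here. The counts of members called below are therefore not set against a share of all genes.

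For monocytes of MET against Distal normal tissue, 31 genes were called, and 80 with DESeq2, 322 without a filter, 146 with the replicate block, 15 with cells of at least 1000 UMIs and 178 with a batch term. Members called there went from 1 to 3 with DESeq2, no filter, the block or the batch term, and to 0 with cells of at least 1000 UMIs or without the highest cell of each sum. For macrophages of MET against Distal normal tissue, 123 genes became 256 (DESeq2), 461 (no filter), 187 (block), 393 (batch term) and 201 (without the highest cell), and 71 to 191 with 1 replicate left out. Members called went from 0 to 1 without a filter or without the highest cell, 3 with the block, 3 with the batch term, and 0 to 1 with 1 replicate left out. Ccl7 turned from -0.25 to 0.26, 2.63, 1.89 and 2.22 (no filter, block, batch term, without the highest cell) and ran from -0.52 to 0.94 with 1 replicate left out.

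For monocytes of Core against margin, 0 genes became 5 (DESeq2), 91 (no filter), 74 (block), 2 (cells of at least 1000 UMIs), 2 (sums of at least 20 cells), 7 (batch term) and 0 to 3 (1 replicate left out), and members called 2, 2 and 1 without a filter, with the block and with the batch term, and 0 to 1 with 1 replicate left out. For macrophages, 0 became 39, 17 and 4 (DESeq2, no filter, batch term) and 0 to 6 (1 replicate left out), with 1 member called by DESeq2 and 1 without a filter, and Ccl2 at -0.44 with the batch term. For Mon Fn1, the block gave 1 gene between MET and Distal normal tissue, and between Core and margin 1, 5, 1 and 9 (no filter, block, sums of at least 20 cells, batch term), with 1 member called with the batch term.

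For Primary against Core, monocytes went from 27 genes to 138, 320, 43 and 0 (DESeq2, no filter, sums of at least 20 cells, batch term) and 0 to 15 with 1 replicate left out, with 2 members called without a filter. Macrophages went from 98 to 196, 258, 62 and 4 (DESeq2, no filter, cells of at least 1000 UMIs, batch term) and 45 to 122, with members called from 2 to 1 (cells of at least 1000 UMIs), 0 (batch term), 1 (without the highest cell) and 1 to 2 (1 replicate left out), and Ccl12 at 2.00 with the batch term. Mon Thbs1 went from 29 to 80, 51, 14, 71 and 0 (DESeq2, no filter, cells of at least 1000 UMIs, sums of at least 20 cells, batch term) and 0 to 98, with members called 0 with the batch term and 0 to 1 with 1 replicate left out, and Ccl7 at 1.11 and Ccl12 at 0.027 with the batch term. Without 1 of the Primary mice or without 6 of the Core mice in turn, macrophage Ccl2 lost its call.

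For Pre-MET against Normal monocytes, 214 became 387 (DESeq2), 127 (cells of at least 1000 UMIs) and 87 to 138, and Ccl2 ran from -0.032 to 2.17. For the difference between lineages, members called went from 1 to 0 with DESeq2, with the replicate block and with cells of at least 1000 UMIs, and 0 to 1 with 1 replicate left out, with Ccl2 from -0.47 to 1.65. With cells of at least 1000 UMIs, Ccl7 was 6.84 and Ccl12 5.11 there, and Ccl12 was -0.13 between Core and margin. The causes were not tested. Where a group had 4 or fewer mice, a missed call does not show that levels were alike.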

Other observations

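Cells labelled DC migDC, migratory dendritic cells, held 77.7 ± 106 CPM of Ccl8 (n = 3 sums), the highest mean outside the macrophage and Tumor labels, and too few sums for a comparison between tissues. Mon MHC-II held 134 ± 334 CPM of Ccl12, with counts in 8 of 23 sums. The highest was MET mouse 28 at 1504 CPM, where 1 cell held 91.8% of the members' UMIs. Cells labelled Erythrocytes held 90.0 ± 51.1 CPM of Ccl7 (n = 4 sums).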
